A study of Rattus norvegicus with 8 samples.

Results

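Aminoacyl-tRNA synthetases are the enzymes that join each amino acid to its transfer RNA, and 35 of their genes were followed here in rat liver, 19 for cytosolic and 16 for mitochondrial enzymes. Members were taken by name from the gene family, and every probe whose RefSeq transcript accession mapped to one of those names was used. Of the 35 genes, 31 were measured by 40 of the 30367 probes on the array, and all 31 passed the filter on dim probes described below. No matched probe was found for Gars1, Iars2, Lars2 and Mars2, so these genes were not analysed here. Of those, Gars1, like the tested Kars1, serves both the cytosol and the mitochondria, and it is counted with the cytosolic enzymes.

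For 28 days, adult male rats of the outbred Sprague-Dawley stock were fed perfluorooctanesulfonate (PFOS), a persistent fluorinated surfactant given as its potassium salt at 50 mg/kg in the diet. Control rats of the same stock and sex ate the control diet over the same period. Each group held 4 rats with 1 two-colour array each, and whole frozen liver was extracted. Liver RNA was labelled with Cy5, and a commercial pool of rat RNA labelled with Cy3 was the common reference on every array, so each value below is a log2 ratio of Cy5 over Cy3.

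A synthetase recognises 1 amino acid and its matching transfer RNAs, spends ATP on the link and releases a charged transfer RNA for the ribosome. Cytosol and mitochondria run separate protein synthesis, and most amino acids have a separate nuclear gene for the mitochondrial enzyme. When charging fails, uncharged transfer RNA activates the kinase GCN2, the factor eIF2 is phosphorylated, and the transcription factor ATF4 then raises genes of amino acid supply, among them several cytosolic synthetases. Liver makes most plasma proteins and handles most amino acids that arrive from the gut, so both routes run at high rates there.

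The 8 arrays shared 1 slide and were scanned on 1 date, so neither divides the groups. Between 50.4% and 59.1% of probes were well above background in Cy5, and Cy5 medians over the spots of an array were 116 to 160 units beside a local background of 71 to 75 units. The 4 arrays of slide row 1 had medians of 154.5 to 160 and those of row 2 had 116 to 138, with 2 arrays of each group in each row. Hepatocyte markers were well above background on all 8 arrays for 12 of 12 genes listed. The same held for 11 of 11 Kupffer cell markers and 10 of 10 stellate cell and fibroblast markers, so detection alone does not single out hepatocytes. The precision is limited by the number of arrays, and the standard error of a member's log2 change lay between 0.07 and 0.16. In whole liver, fewer cells of a type and less RNA per cell cannot be told apart.

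A single synthetase gene passed the test between diets. It was Cars2, for the mitochondrial cysteinyl-tRNA synthetase, which fell in PFOS livers. Of the 13 mitochondrial enzymes tested, 1 was lower and none was higher in PFOS, and of the 18 cytosolic enzymes none passed (limma, Benjamini-Hochberg adjusted p under 0.05 over all genes), against 3.93% of 15204 genes and features that passed in the same fit. At an unadjusted p under 0.05 the counts were 5 of 13 mitochondrial and 4 of 18 cytosolic enzymes, against 19.9% of all tested. Of the 31 members tested, 7 were higher in PFOS at that level, against 9.03% of all tested. Another 2 of the 31 (Cars2 and Wars1) were lower, against 10.8%. The median log2 change was 0.15 for the mitochondrial list and 0.14 for the cytosolic list, beside -0.011 over all tested, and 27 of the 31 members lay above 0, against 47.8% of all tested, and 4 below 0, against 52.2%. In the values as the authors deposited them, 23 of 31 lay above 0, since Aars1, Eprs1, Kars1 and Tars2 changed sign, while loess, median centring and scaling of the scanner signals all gave 27 of 31.

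**Figure D1:**
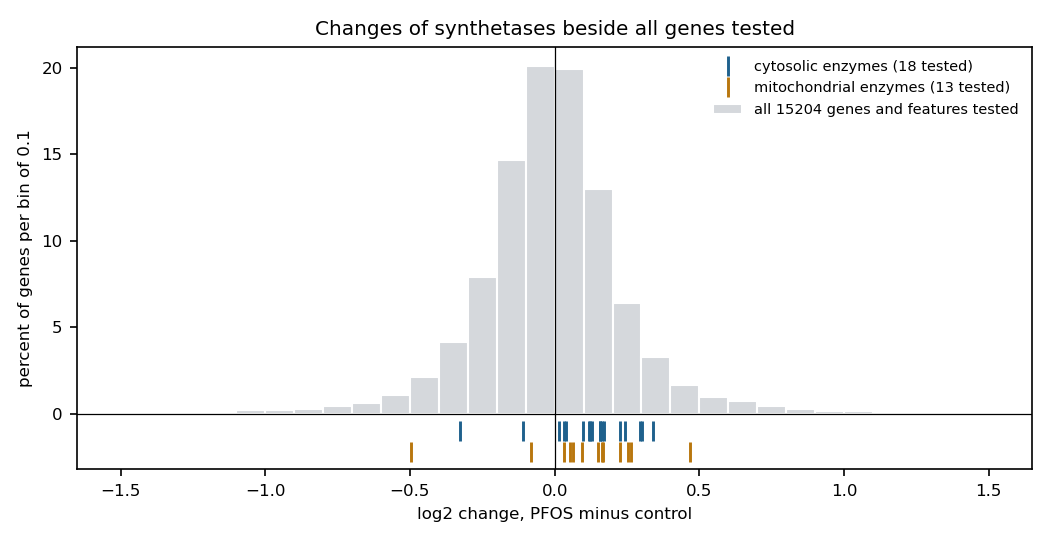
Grey bars give the percent of all 15204 tested genes and features in bins of 0.1 of the log2 change, PFOS minus control, and the ticks under the axis mark each of 18 cytosolic and 13 mitochondrial enzymes. Most ticks lie to the right of 0 and inside the body of the distribution, with Cars2 (-0.50) and Ears2 (0.47) at the ends. The bars leave out 37 features below and 56 above the axis.

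The lists were also followed array by array, after each gene was centred on its own mean over the 8 arrays. For the mitochondrial list the mean of the centred log2 ratios was 0.13, 0.01, 0.02 and 0.06 on PFOS arrays 1 to 4, against -0.05, -0.03, -0.01 and -0.12 on control arrays 1 to 4. For the cytosolic list the same mean was 0.15, 0.05, 0.00 and 0.03 on the PFOS arrays, against 0.01, 0.00, -0.13 and -0.13 on the control arrays. Every PFOS array thus stood above every control array for the mitochondrial list, by a narrow margin. The cytosolic values of both groups met, with control 1 (slide row 1) above PFOS 3 (slide row 2). Within each slide row, every PFOS array stood above every control array for the cytosolic list as well. The difference between the median changes of the lists, cytosolic minus mitochondrial, was -0.007 on the log2 scale. On single arrays, the difference between the list means had a pooled SD of 0.06 within groups. That SD is not the error of the difference between medians, and the difference between compartments was not tested.

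Among the mitochondrial enzymes, Cars2 charges cysteine and is also known to form cysteine persulfides. Its log2 ratios were 1.56, 1.51, 1.90 and 1.71 in PFOS livers, against 2.11, 2.16, 2.31 and 2.09 in control livers. All PFOS values lay below all control values. The means were 1.67 ± 0.18 in PFOS livers and 2.17 ± 0.10 in control livers (SD, n = 4 each), a log2 change of -0.50 (SE 0.10, 95% interval -0.73 to -0.26, limma adjusted p = 0.033) or 1.41-fold lower. The Cy5 channel alone gave -0.57 and the Cy3 reference -0.03. Cars2 was measured by 1 probe with 1 spot on each array, so no further probe could be set beside it. Without PFOS 3 the adjusted p was 0.0208, and without any other single array Cars2 no longer passed, at -0.52 to -0.44 and with adjusted p-values of 0.0569 to 0.0861. It also missed the threshold under 6 other choices of processing (limma adjusted p of 0.0509 to 0.185), and within slide rows 1 and 2 its change was -0.60 and -0.39, neither of which passed with 2 arrays a group.

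Ears2, the mitochondrial glutamyl-tRNA synthetase, showed the largest positive difference of the 31 members but narrowly missed the threshold. This enzyme also places glutamate on the mitochondrial glutamine transfer RNA, which an amidotransferase then converts. In PFOS livers its values were 1.85, 1.46, 1.47 and 1.78, against 1.18, 1.04, 1.26 and 1.20 in control livers. The groups did not overlap, and the log2 change was 0.47 (SE 0.11, 95% interval 0.22 to 0.72, limma adjusted p = 0.0509). A second Ears2 probe gave 0.19 (adjusted p = 0.374 over all kept probes), with 0.55, 0.41, 0.43 and 0.50 in PFOS livers, against 0.55, 0.35, 0.17 and 0.04 in control livers, so its groups overlapped. The probe that stood for Ears2 had 1 spot on each array, and the second probe had 2. The second probe was well above background on 4 of 4 PFOS but 2 of 4 control arrays, and the first on all arrays. The third Ears2 probe stayed near background on all arrays and was not tested.

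Yars2, for tyrosine, was the remaining mitochondrial gene whose groups did not overlap, with 1.05, 0.80, 0.78 and 0.99 in PFOS livers, against 0.60, 0.78, 0.49 and 0.69 in control livers. Its log2 change of 0.27 (SE 0.10, limma adjusted p = 0.173) did not pass. Non-overlapping groups were found for 3 of 13 mitochondrial and 3 of 18 cytosolic enzymes, against 12.8% of all genes and features tested. Of all 31 members tested, 4 had PFOS livers higher without overlap, against 5.93% of all tested, and 2 had them lower, against 6.88%. Sars2 for serine (0.26, 95% interval 0.01 to 0.50) and Rars2 for arginine (0.23, 95% interval 0.04 to 0.41) were above 0 at an unadjusted p under 0.05 and did not pass after adjustment. Smaller differences were measured for Pars2 for proline (0.17), Wars2 for tryptophan (0.16), Nars2 for asparagine (0.15), Fars2 for phenylalanine (0.09), Vars2 for valine (0.06), Aars2 for alanine (0.05) and Tars2 for threonine (0.03), and Hars2 for histidine was at -0.08. Aars2 was dim, being well above background on 2 of 4 PFOS and 3 of 4 control arrays. A further Wars2 probe, well above background on 3 of 4 PFOS arrays and 1 of 4 control arrays, gave 0.38 (adjusted p = 0.0873 over all kept probes), and a further Pars2 probe gave 0.02, so the size for these genes depends on the probe.

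**Figure D2:**
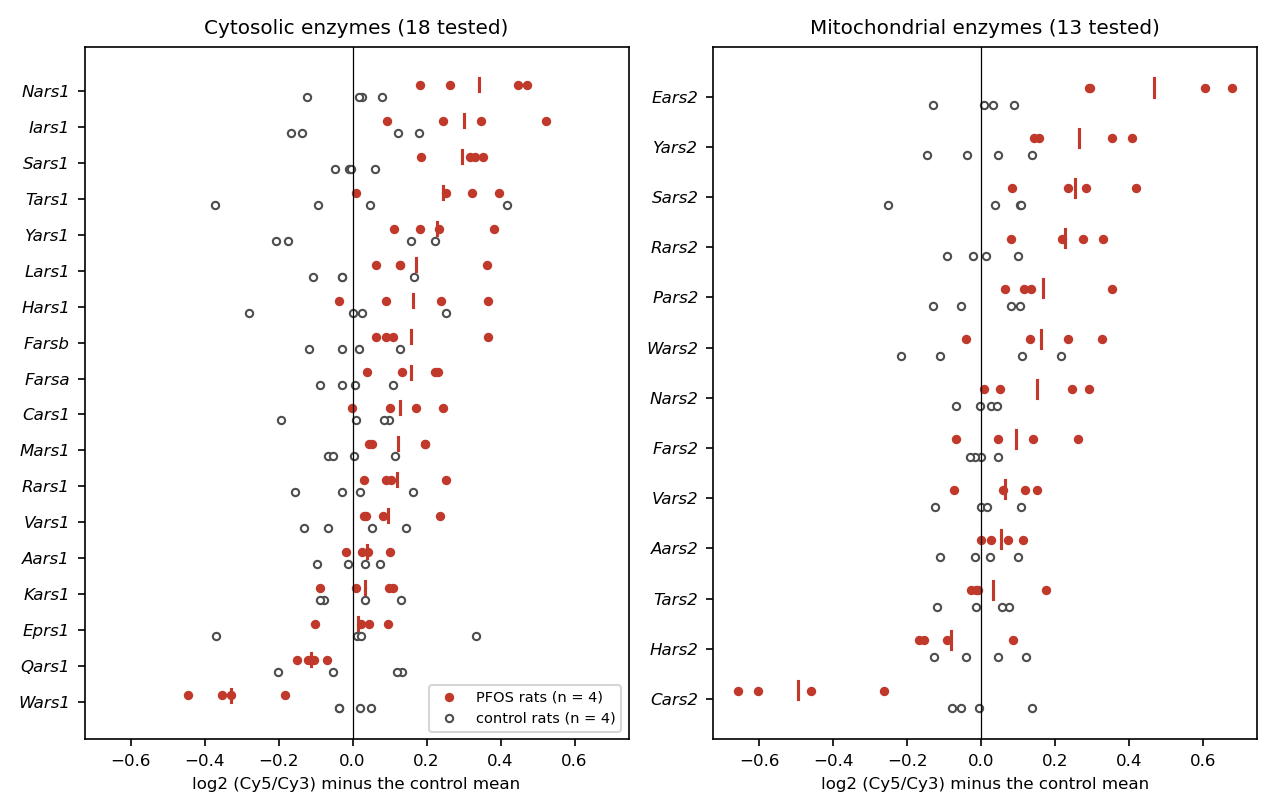
Each row is 1 tested gene, with filled red points for the 4 PFOS rats above open grey points for the 4 control rats, as log2 (Cy5/Cy3) minus the mean of the control rats. A red bar marks the PFOS mean. Red and grey points are apart for Cars2, Ears2 and Yars2 on the right and for Nars1, Sars1 and Wars1 on the left, and they mix in the other rows.

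Of the 18 cytosolic enzymes, Wars1 stood lowest and Nars1 highest, and neither passed. Wars1 charges tryptophan and is also known as a gene induced by interferon gamma. Its values were -1.06, -1.33, -1.24 and -1.21 in PFOS livers, against -0.83, -0.92, -0.92 and -0.86 in control livers. All PFOS values lay below all control values, and the log2 change was -0.33 (SE 0.08, 95% interval -0.51 to -0.15, limma adjusted p = 0.0549). A further Wars1 probe was also lower in PFOS, at 1.21, 1.08, 0.99 and 1.26, against 1.27, 1.30, 1.33 and 1.48 in control livers, with a change of -0.21 (adjusted p = 0.239 over all kept probes).

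Nars1, the asparaginyl-tRNA synthetase, had log2 ratios of -0.18, -0.44, -0.36 and -0.15 in PFOS livers, against -0.60, -0.61, -0.75 and -0.54 in control livers. The groups were apart, with a log2 change of 0.34 (SE 0.09, 95% interval 0.13 to 0.55, limma adjusted p = 0.0799). Its further probe gave 0.29, 0.02, -0.13 and 0.04 in PFOS livers, against -0.24, -0.30, -0.37 and -0.33 in control livers, a change of 0.36 (adjusted p = 0.081 over all kept probes). Both Nars1 probes therefore showed a difference of like size, and neither passed. Sars1, which charges serine and also supplies the seryl transfer RNA on which selenocysteine is made, had -0.70, -0.74, -0.87 and -0.72 in PFOS livers, against -0.996, -1.07, -1.06 and -1.10 in control livers. These groups did not overlap either, and the change was 0.30 (SE 0.07, 95% interval 0.13 to 0.46, limma adjusted p = 0.0583), which passed in the Cy5 channel alone (0.29, limma adjusted p = 0.0473).

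The 7 enzymes of the cytosolic multi-synthetase complex, a large assembly that holds several synthetases together, gave 6 values above 0 and a median of 0.12. Among all tested, 47.8% lay above 0 and 19.9% had an unadjusted p under 0.05. None passed in limma, and 1, Iars1 for isoleucine, had an unadjusted p under 0.05 (0.30, 95% interval 0.03 to 0.57, limma adjusted p = 0.203). Lars1, the leucine enzyme that is also known as a leucine sensor of mTORC1, was at 0.17, Mars1 for methionine at 0.12, Rars1 for arginine at 0.12, Kars1 for lysine at 0.03 and Eprs1, which joins a glutamate and a proline enzyme in 1 chain, at 0.02. Qars1 for glutamine was below 0, at -0.11 (95% interval -0.32 to 0.09). A further Kars1 probe gave 0.20 (adjusted p = 0.182 over all kept probes). Eprs1 was spread widely among control arrays, from -0.18 to 0.52, and its PFOS values of 0.09 to 0.29 fell inside that range.

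Outside the complex, Tars1 for threonine was at 0.24, Yars1 for tyrosine at 0.23, Hars1 for histidine at 0.16, Cars1 for cysteine at 0.13, Vars1 for valine at 0.10 and Aars1 for alanine at 0.04, and none passed. The phenylalanine enzyme is built from 2 kinds of chain, and both genes gave like values, Farsa at 0.16 and Farsb at 0.16. Their 95% intervals ran from -0.02 to 0.34 and from -0.05 to 0.37. Tars1 was spread still more widely in control livers, from 0.50 to 1.29, and its PFOS values of 0.88 to 1.27 fell within it. By the 2 ancient folds of the catalytic domain, 15 class I enzymes had a median of 0.13, with Cars2 lower and 6 at an unadjusted p under 0.05. The 15 class II enzymes had a median of 0.16, with none passing in limma and 3 at an unadjusted p under 0.05, beside 19.9% of all tested.

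**Figure D3:**
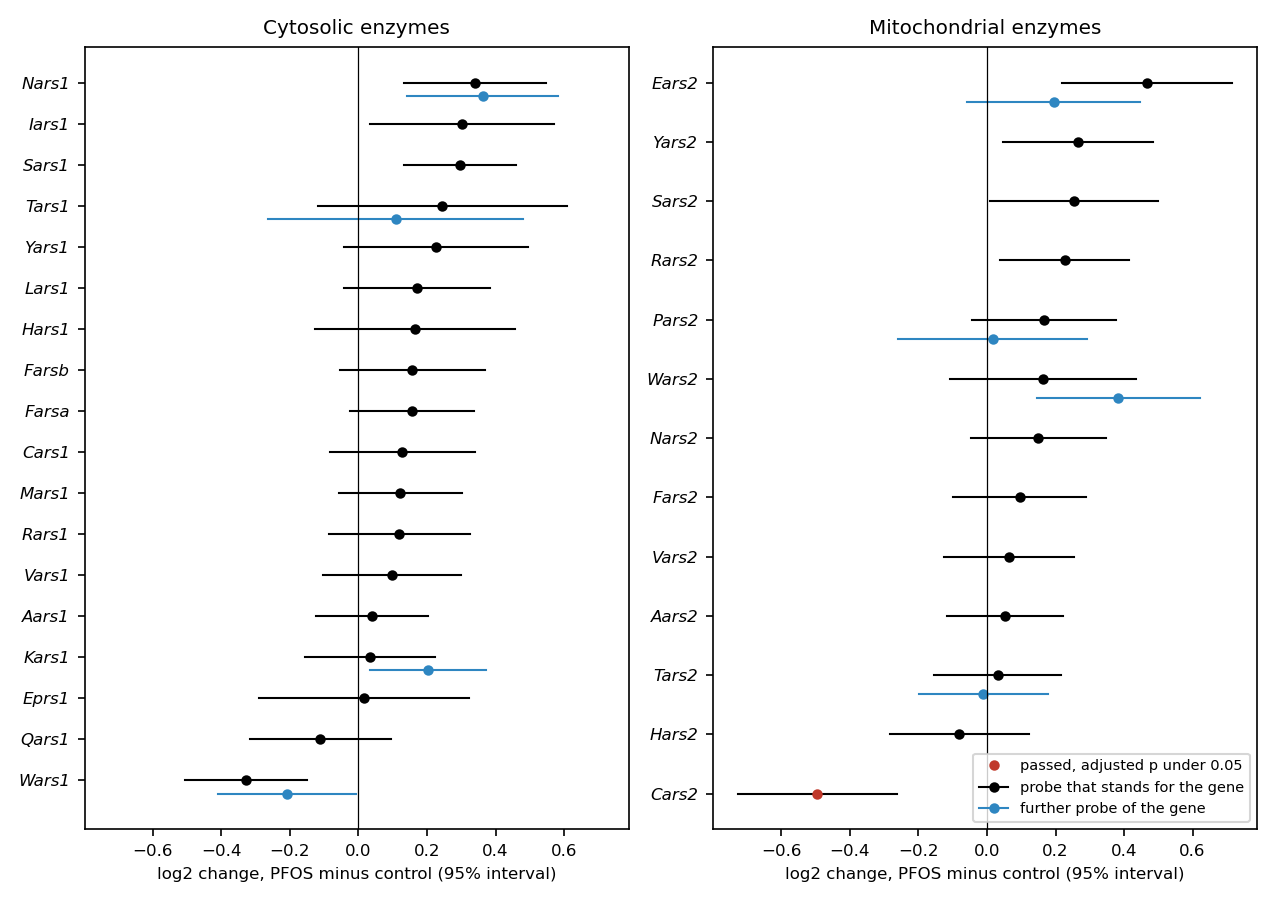
Points give the log2 change, PFOS minus control, and lines its 95% interval for every kept probe of the 18 cytosolic and 13 mitochondrial genes tested. Black marks the probe that stands for the gene, blue a further probe, and red the gene that passed. Cars2 is the red point at -0.50, and further probes lie on the same side of 0 in 7 of 8 genes, Tars2 being the exception.

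For 10 amino acids, a cytosolic and a separate mitochondrial enzyme of single chain type were both tested, which allows the compartments to be set side by side. The cytosolic change was the larger one, with sign, in 6 of 10 pairs, and both changes had the same sign in 7. The cysteine enzymes lay farthest apart, Cars2 at -0.50 and Cars1 at 0.13. Tryptophan showed the reverse layout, with Wars2 at 0.16 and Wars1 at -0.33. For each pair the log2 ratio of the mitochondrial gene was taken from that of the cytosolic gene on the same array, and for 3 pairs (cysteine, tryptophan and asparagine) these array values did not overlap between diets. Relative to the control mean, the cysteine value was 0.77, 0.90, 0.36 and 0.46 on the PFOS arrays, against 0.07, 0.10, -0.33 and 0.16 on the control arrays. The tryptophan value was -0.31, -0.68, -0.68 and -0.29 on the PFOS arrays, against 0.16, -0.25, -0.15 and 0.24 on the control arrays. The asparagine value was 0.155, 0.173, 0.212 and 0.224 on the PFOS arrays, against 0.026, -0.009, -0.167 and 0.149 on the control arrays. That separation was the narrowest of the 3, with PFOS 1 next to control 4. The 3 pairs hold Cars2, Wars1 and Nars1, whose own groups did not overlap, so this count in part repeats those values. Among single genes and features 12.8% did not overlap, and no such share was computed for other gene pairs. These are descriptions, and the differences between pair members were not tested.

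**Figure D4:**
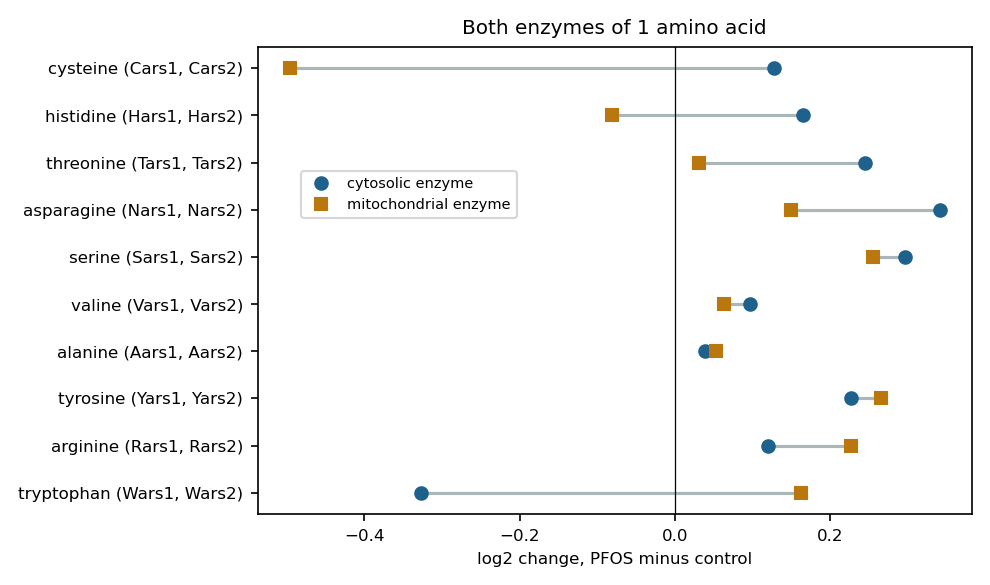
For each of 10 amino acids, a blue circle gives the log2 change, PFOS minus control, of the cytosolic enzyme and an orange square that of the mitochondrial enzyme, ordered by the difference between them. The cysteine pair at the top and the tryptophan pair at the bottom are widest, in opposite directions, and the alanine, valine, serine and tyrosine pairs nearly coincide.

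ATF4 is known to bind, with a C/EBP partner, a composite site with the letters TGATGNAA, and this motif was searched on both strands of the RefSeq promoters (GRCr8 build, from 250 bases before to 50 bases after the annotated start), of which 33 of 35 members had one. It was found in 7 of 17 cytosolic promoters (41.2%) and 0 of 16 mitochondrial promoters, while 4.16% of 27457 genes with a promoter held it. A match is a description of letters and does not show binding. For each gene the match nearest to the start is shown, because matches were found in the promoters of 1 compartment and had no part in the choice of members. Each line gives the gene, the position of the bases shown, the strand of the gene, the place of the motif counted from the start, and the bases of the gene's own strand, 5′ to 3′, with the motif in capitals (its reverse complement where it lies on the other strand).
Nars1, chr18:60275778-60275807, minus strand, -14: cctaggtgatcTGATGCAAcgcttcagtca
Iars1, chr17:15193658-15193687, minus strand, -24: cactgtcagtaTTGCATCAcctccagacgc
Tars1, chr2:62114811-62114840, minus strand, -27: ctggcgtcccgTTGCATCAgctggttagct
Yars1, chr5:146820190-146820212, plus strand, 39: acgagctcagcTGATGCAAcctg
Cars1, chr1:208225334-208225363, minus strand, 18: cggcgccgcggTTGCATCAgattctggaaa
Mars1, chr7:65023752-65023781, minus strand, -17: gcccgttccggTTGCATCAgcgtgggctcc
Aars1, chr19:55908480-55908509, plus strand, 10: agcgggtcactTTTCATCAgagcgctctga

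The 7 cytosolic genes with the motif were all above 0 in PFOS livers, with a median log2 change of 0.23 and a range of 0.04 to 0.34, and none passed. The 10 cytosolic genes without it had 8 above 0, a median of 0.13 and a range of -0.33 to 0.30. Among all tested genes with a promoter in the table, 81 of the 176 with the motif were above 0, with a median of -0.02, and 3733 of the 7751 without it, with a median of -0.009. The palindrome CACGTG, which MYC and related factors are known to bind, was found in 5 of 17 cytosolic and 1 of 16 mitochondrial promoters, that of Ears2, and in 7.08% of all genes with a promoter.

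**Figure D5:**
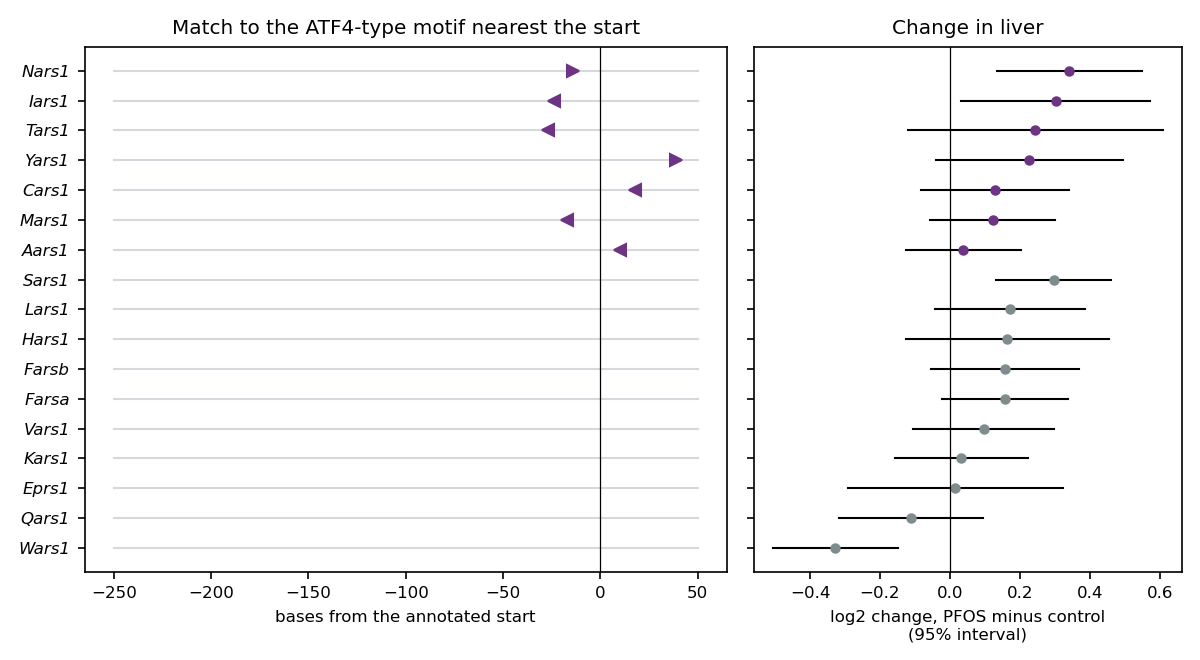
Left, triangles mark, for each gene, the match to TGATGNAA nearest to the start along the 17 cytosolic promoters, pointing right on the gene's own strand and left on the other, by bases from the annotated start. Right, the log2 change, PFOS minus control, with its 95% interval for the same genes, purple with and grey without a match. The matches drawn lie within 40 bases of the start. Sars1, without a match, is at 0.30, inside the range of the genes with one (0.04 to 0.34).

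The 3 scaffold proteins that hold the multi-synthetase complex together gave nearly the same value. Aimp1 was at 0.37 (SE 0.11, limma adjusted p = 0.103), Eef1e1 at 0.37 (SE 0.11, limma adjusted p = 0.106) and Aimp2 at 0.35 (SE 0.11, limma adjusted p = 0.111), and the groups did not overlap for any of them, against 5.93% non-overlapping and higher among all tested. For Aimp2 the values were -1.19, -1.25, -1.63 and -1.43 in PFOS livers, against -1.72, -1.63, -1.76 and -1.78 in control livers. None of the 3 passed in limma, and all 3 had an unadjusted p under 0.05, against 19.9% of all tested. The separation was narrow for each. The nearest arrays were PFOS 3 at -0.684 and control 1 at -0.694 for Aimp1, PFOS 4 at -0.576 and control 2 at -0.599 for Eef1e1, and PFOS 3 and control 2 for Aimp2.

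No gene of the lists that use or prepare charged transfer RNA passed in limma. For the counts that follow, the shares among all tested were 47.8% above 0 and 19.9% with an unadjusted p under 0.05. Of 7 cytosolic elongation genes 4 were above 0 (median 0.004, none with an unadjusted p under 0.05), with Eef1a1, which carries charged transfer RNA to the ribosome, at 0.19 and Eef2, which moves the ribosome on, at -0.18. Of 7 mitochondrial initiation and elongation genes 4 were above 0 (median 0.05, 1 with an unadjusted p under 0.05), led by the release factor Mtrf1l at 0.31 (limma adjusted p = 0.119). Mitochondrial Tufm, which does in that compartment what Eef1a1 does in the cytosol, was at 0.11. Of 12 genes for mitochondrial transfer RNA maturation and the glutamine route, 10 were above 0 (median 0.08, 2 with an unadjusted p under 0.05), among them Trmt10c (0.24) and Elac2 (0.20), which take part in trimming opposite ends of the transfer RNA, while Gatc, a subunit of the amidotransferase that finishes glutaminyl transfer RNA, was at -0.16. Of 4 proofreading genes 3 were above 0 (median 0.06, 1 with an unadjusted p under 0.05), and the peptidyl-tRNA hydrolase Ptrh2 was at 0.28 (limma adjusted p = 0.162).

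The eIF2 kinases, eIF2 and their partners gave no call among 14 tested genes, with a median of 0.10. Above 0 lay 12 of the 14, against 47.8% of all tested. In limma, 4 had an unadjusted p under 0.05, against 19.9% of all tested. Eif2s1, the eIF2 subunit that stress kinases phosphorylate, was at 0.39 (SE 0.11, limma adjusted p = 0.0857). Eif2ak4, which encodes GCN2, was at -0.31 (SE 0.12, limma adjusted p = 0.194), and Impact, a GCN2 inhibitor, was at 0.20. Eif2s2, another eIF2 subunit, was at 0.22.

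Among ATF4 and its classic targets outside the family, 4 of 26 tested genes passed as higher and 4 as lower in PFOS. Among all tested, 1.82% passed as higher and 2.11% as lower. Above 0 lay 20 of the 26 and below 0 lay 6, with a median of 0.24, against 47.8% and 52.2% of all tested. In limma, 16 of the 26 had an unadjusted p under 0.05, against 19.9% of all tested. Asns, which makes asparagine, the amino acid that Nars1 charges, rose 2.51-fold. Its log2 ratios were -1.77, -2.13, -1.70 and -2.30 in PFOS livers, against -3.40, -3.11, -3.60 and -3.11 in control livers, a change of 1.33 (SE 0.16, limma adjusted p = 0.00353). Slc3a2, the shared chain of amino acid exchangers (0.65, limma adjusted p = 0.0155), Psat1 of serine synthesis (0.69, limma adjusted p = 0.043) and Mthfd2 of mitochondrial folate use (0.57, limma adjusted p = 0.0321) also rose. The hormone gene Fgf21 fell by 1.85, Aldh1l2, a mitochondrial folate enzyme, by 1.10, the stress regulator Nupr1 by 0.71 and the transcription factor Atf5 by 0.54 on the log2 scale (limma adjusted p of 0.00123 to 0.0495). Slc3a2, Psat1, Mthfd2 and Atf5 were chosen after their values were seen. Of 23 other settings, Atf5 passed in 6, Psat1 in 9, Mthfd2 in 13 and Slc3a2 in 22. With single arrays left out, Atf5 was lost without any of the 8, Psat1 without any but PFOS 4 and Mthfd2 without any but control 4. The change of Mthfd2 ran from 0.45 to 0.90 over the other ways of processing, and that of Fgf21, well above background on 3 of 4 PFOS arrays, from -2.41 to -1.15. Aldh1l2 did not pass with scaling between arrays (limma adjusted p = 0.0576).

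In the growth control list of 7 tested genes, 1 rose, against 1.82% higher among all tested. It was Eif4ebp1, which encodes a translation repressor that mTOR holds in check, with -1.35, -1.52, -1.45 and -1.88 in PFOS livers, against -2.31, -2.18, -2.09 and -2.15 in control livers (log2 change 0.63, SE 0.12, limma adjusted p = 0.0217). It passed in 15 of 23 other settings, and was lost with median centring, scaling between arrays and slide column as a block (limma adjusted p up to 0.134) and without PFOS 1, 2 or 3 or control 1 or 2 (up to 0.0644). Myc, a transcription factor of growth genes, was at 0.72 (SE 0.41, limma adjusted p = 0.359), with a wide spread, and Mtor and Max were at -0.18 and -0.17.

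Some synthetase genes have a neighbour that starts close by on the opposite strand, in a head-to-head layout, and 4 such pairs within 1000 bases had both genes tested. In the RefSeq promoter table Hars1 and Hars2 start 144 bases apart, so the cytosolic and mitochondrial histidine enzymes share 1 upstream region, and their changes were 0.16 and -0.08. Rars2 starts 79 bases from Orc3, a subunit of the DNA replication origin complex, and they were at 0.23 and 0.32 (limma adjusted p = 0.0783 for Orc3). Ears2 starts 360 bases from Ubfd1 (0.28, limma adjusted p = 0.112). Kars1 starts 128 bases from Terf2ip, a telomere protein gene (0.10). Neither partner passed in any of these 4 pairs, and these neighbours were chosen after the values were seen.

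The mean of the 18 centred cytosolic genes was set against the pattern of 9589 other genes with a symbol over the 8 arrays. The 5 most alike were Ftsj3, which encodes a nucleolar methyltransferase of ribosomal RNA (r = 0.971), Cmip (r = 0.971), Hsd17b8, of mitochondrial fatty acid synthesis (r = 0.965), Zhx3 (r = 0.958) and Ppp2r2d, a phosphatase subunit (r = 0.956). Their log2 changes were 0.38, 0.14, 0.17, 0.26 and 0.12, and none passed in limma. These correlations are the highest of many over 8 arrays that share a slide and a reference, and they are given as a description.

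The Cy3 reference moved little under these probes, with medians of 0.007 for cytosolic and 0.011 for mitochondrial genes, and no member passed in that channel (limma), against 0.0789% of all tested. In the Cy5 channel alone, Cars2 (-0.57), Ears2 (0.48, limma adjusted p = 0.0334) and Sars1 passed, 3 of 31 members against 4.69% of all tested. Markers of other liver cells were read beside these values. In the ratio none passed in limma, while 2 hepatocyte markers passed in Cy5 alone and 1 in the Cy3 reference. At an unadjusted p under 0.05 the counts were 3 of 12 for hepatocytes, 1 of 11 for Kupffer cells, 5 of 6 for sinusoidal endothelium, 2 of 10 for stellate cells and fibroblasts, 1 of 4 for cholangiocytes and 0 for lymphocytes (6 tested) and erythroid cells (3 tested). Among all tested, 19.9% had an unadjusted p under 0.05 and 52.2% lay below 0. Of 10 endothelial markers 6 were tested (Stab1, Stab2 and Clec4g had no matched probe and Tek was dim), and these were all below 0, with a median of -0.45 and centred means of -0.42 to 0.02 in PFOS livers, against -0.17 to 0.38 in control livers. The 3 erythroid markers were also all below 0, with a median of -0.47 and centred means of -0.40 to 0.07 in PFOS livers, against -0.70 to 0.82 in control livers. Of 11 Kupffer cell markers 10 were below 0, with a median of -0.15, and their centred means were -0.58 to 0.33 in PFOS livers, against -0.32 to 0.44 in control livers. Markers of other types did not all lie below 0. All 4 cholangiocyte markers tested were above 0, with a median of 0.10. Above 0 also lay 5 of 12 hepatocyte, 4 of 10 stellate cell and fibroblast and 2 of 6 lymphocyte markers. The part of these cell types in the synthetase values was not tested.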

How the data were processed

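Liver RNA (Cy5) of 4 PFOS and 4 control rats was read against a common Cy3 reference, with no dye swap per the labels, and replicate numbers follow accession order and pair nothing. The scanner files hold spot intensity values deposited by the authors, read by Agilent Feature Extraction, version 10.7.3.1, as the submitters' processing notes and, per the file headers, the files state. Values on a log2 scale were also deposited for each array, and their normalization is not given in the sources used here. They correlated at 0.995 to 0.997 with loess ratios (Cy5 over Cy3) computed without background subtraction, which gives their scale and direction. The array medians were -0.061 to -0.048, and the centring is unknown.

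The files hold median, not mean, spot signals. These were corrected with normexp (offset 50), and loess was fitted within each array, giving control spots no weight. Spots marked as outliers (733 to 991 per array) were left out, no spot was saturated, and spots of a probe were averaged. Probes were named through RefSeq accessions (GRCr8 table, 18004 of 30367 probes). Probes had to be well above background in the Cy5 channel of 4 or more of the 8 arrays (16952 passed), and a gene was represented by its brightest probe in Cy5, on average over arrays, which gave 15204 genes and features. Groups were compared with limma 3.58.1 (lmFit, eBayes, two-sided, Benjamini-Hochberg over all of them) in R 4.3.3, and further probes in a fit over all kept probes. The limma fit was tested on simulated data, and the steps before it were not. Each rat is a separate animal by its label.

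A further motif match is not reported here. Members and lists were chosen with earlier results of these data known. The text names all members, up to 4 genes of each other list with the smallest p, and the 5 genes most like the cytosolic mean, and says where another gene was chosen after its value was seen. Alternatives covered background correction, normalization, channel, the deposited table, dim-probe filters, probe averaging, eBayes options, weights for arrays, blocks for the row or column of the slide, and leaving out each array in turn. Fits within each slide row were chosen after seeing the data.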

Additional observations from a re-analysis of the deposited data

Results flagged for a closer look

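In 5 of 148 groups of 4 arrays checked, 1 array stood far from the other 3, while chance alone flags about 1 group in 20. Farsb was at -0.94 on PFOS 1, against -1.24 to -1.19 on the other PFOS arrays. Tars2 was at 0.46 on PFOS 1, against 0.26 to 0.28 on the other PFOS arrays. Trmt10c was at 0.21 on control 3, against 0.39 to 0.41 on the other control arrays. Mthfd2 was at -3.55 on PFOS 3, against -3.94 to -3.87 on the other PFOS arrays. Terf2ip was at 0.27 on PFOS 3, against 0.72 to 0.79 on the other PFOS arrays.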

How the results depend on the processing

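The count of mitochondrial enzymes that passed was 1 (Cars2). It was 2 without background subtraction, with processed signals, with array weights, in the Cy5 channel alone and with the filters on all 8 arrays or on both channels, where Ears2 joined Cars2. It was 0 with normexp at offset 0, median centring, scaling between arrays, the authors' deposited table, eBayes with trend and robust options or slide column as a block, and within either slide row. The count of cytosolic enzymes, 0, was 1 (Sars1) in the Cy5 channel alone and in the authors' deposited table, and 2 (Sars1 higher, Wars1 lower) with the filter on all 8 arrays and with eBayes with trend and robust options. Over the left-out arrays both counts were 0 to 1. Among all genes 597 passed, against 238 with median centring, 331 with scaling between arrays, 273 with slide column as a block, 349 to 519 over the left-out arrays, and 97 and 32 within slide rows 1 and 2, which hold 2 arrays of each group. The mitochondrial median was 0.095 with the mean of a gene's probes and 0.077 within slide row 2, where cytosolic minus mitochondrial was 0.073. That difference ran from -0.052 (without control 3) to 0.055 (without PFOS 3) over the left-out arrays. The causes were not tested, beyond fewer arrays where arrays were left out. Cars2 stayed below 0 and Ears2, Sars1 and Nars1 above 0 in each of 23 alternative settings. The standard errors of the members had a median of 0.0911, which limits the size of change that 4 arrays a group can show.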
